A study of Mus musculus with 90 samples.

Results

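The comparison set 4 livers of mice without the glucocorticoid receptor in hepatocytes (GRLKO) against 4 livers of floxed control mice (WT), all on control diet and all collected at ZT8. These 8 samples were taken by genotype, diet and time label from the 90 samples of the series. The series asks how the hepatic receptor takes part in the daily adaptation to caloric restriction, and it followed both genotypes on both diets at 6 times of day. On control diet, chow was given without limit and, in the final week, at night only.

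The mice were male C57BL/6J. WT mice were GRfl/fl, and GRLKO mice were GRfl/fl x Alb-Cre. Both groups therefore carried the floxed receptor gene, and GRLKO mice alone carried the recombinase. The albumin promoter drives the recombinase in hepatocytes. Whether all other liver cells kept the gene was not measured. ZT8 is 8 h after lights on, clock hour 14, in the daily rest and fasting phase of a night-fed mouse. Each library was made from polyadenylated RNA of the liver of 1 mouse. The sample records name a TruSeq RNA kit and the study's methods a stranded guide beside it, and no note says whether the counting used the strand. Whole liver was sequenced, so fewer cells of a type and less RNA per cell cannot be told apart.

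The glucocorticoid receptor is a nuclear receptor that binds corticosteroids in the cytoplasm, moves to the nucleus and acts at DNA elements, as a dimer or with other factors. In liver it is known for driving genes of glucose production and amino acid breakdown, and for acting with the lipid-sensing receptor PPARα and with the growth hormone factor STAT5. Corticosterone in mice peaks near the start of the night, so ZT8 lies on the rising side of that rhythm.

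Library totals ran from 12301800 to 14981008 estimated counts, with a median of 14057174 in WT and 13202018 in GRLKO. Between 17.3 and 20.04% of a library came from its top 10 genes, and 8.42 to 9.20% from mitochondrial genes. Levels are given as CPM, counts scaled to a common library size with TMM factors, in the order of replicates 1 to 4. They are not corrected for gene length, so an order between genes is one of counts only. Albumin had the most counts, with a mean of 67927 CPM over the 8 libraries. The 7 hepatocyte markers summed to 101556, 102381, 101710 and 106070 CPM in WT and 84945, 82088, 107546 and 94817 CPM in GRLKO. None of them was called by edgeR, 2 had an unadjusted p under 0.05, and DESeq2 called 1.

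Replicate 3 of GRLKO stood apart from the other 7 livers in marker levels. Its erythrocyte markers summed to 1434 CPM, against 289.7 to 696 CPM in the others. Its endothelial markers summed to 124 CPM and its Kupffer and myeloid markers to 87.1 CPM, the lowest of the 8 in both cases. Without it, the number of genes past the test given next was 101 in place of 166, against 97, 101 and 105 without GRLKO replicates 1, 2 and 4.

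Of 11582 genes tested, 166 (1.43%) had an adjusted p under 0.05 by edgeR's quasi-likelihood test and are termed called. Of these, 97 (0.838%) were higher and 69 (0.596%) lower in GRLKO. At an unadjusted p under 0.05 the number was 1301. In each of the 166 called genes, all 4 livers of a genotype lay above all 4 livers of the other. Such separation of the groups held for 854 of all genes tested (7.37%), 480 of them higher (4.14%) and 374 lower (3.23%). The median log2 fold change was 0.72 over the called genes that were higher and -0.48 over those that were lower, and -0.0010 over all genes tested. A log2 size of at least 1 was reached by 51 called genes, 33 higher and 18 lower. The smallest called log2 size was 0.21. The 13 gene lists described next held 41 of the called genes, and 125 were in no list.

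Nr3c1 (ENSMUSG00000024431) encodes the receptor itself. Its level was 90.7, 101, 97.0 and 96.3 CPM in WT and 22.0, 26.4, 19.9 and 24.0 CPM in GRLKO. The lowest WT liver stood far above the highest GRLKO liver, and the 4 livers within each genotype lay close together. The WT mean was 4.18 times the GRLKO mean (log2 fold change -2.06, SE 0.086, adjusted p 9.57e-06). Which cells held the remaining transcript was not measured.

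Of the 18 genes for the receptor, its ligand and its co-chaperones, 2 were called, both lower. The list median was -0.04. Besides Nr3c1 this was Hsd11b1, whose enzyme regenerates active corticosteroid inside the cell. Its level was 509.6, 514, 468 and 494 CPM in WT and 365, 408, 405 and 369 CPM in GRLKO (log2 fold change -0.36, SE 0.054, adjusted p 0.0131). Serpina6, which encodes the corticosteroid-binding globulin of plasma, had 295, 305, 329 and 279 CPM in WT and 395, 344, 365 and 403 CPM in GRLKO. The groups did not overlap, but the gene missed the threshold (log2 fold change 0.32, SE 0.069, adjusted p 0.0690).

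**Figure D1:**
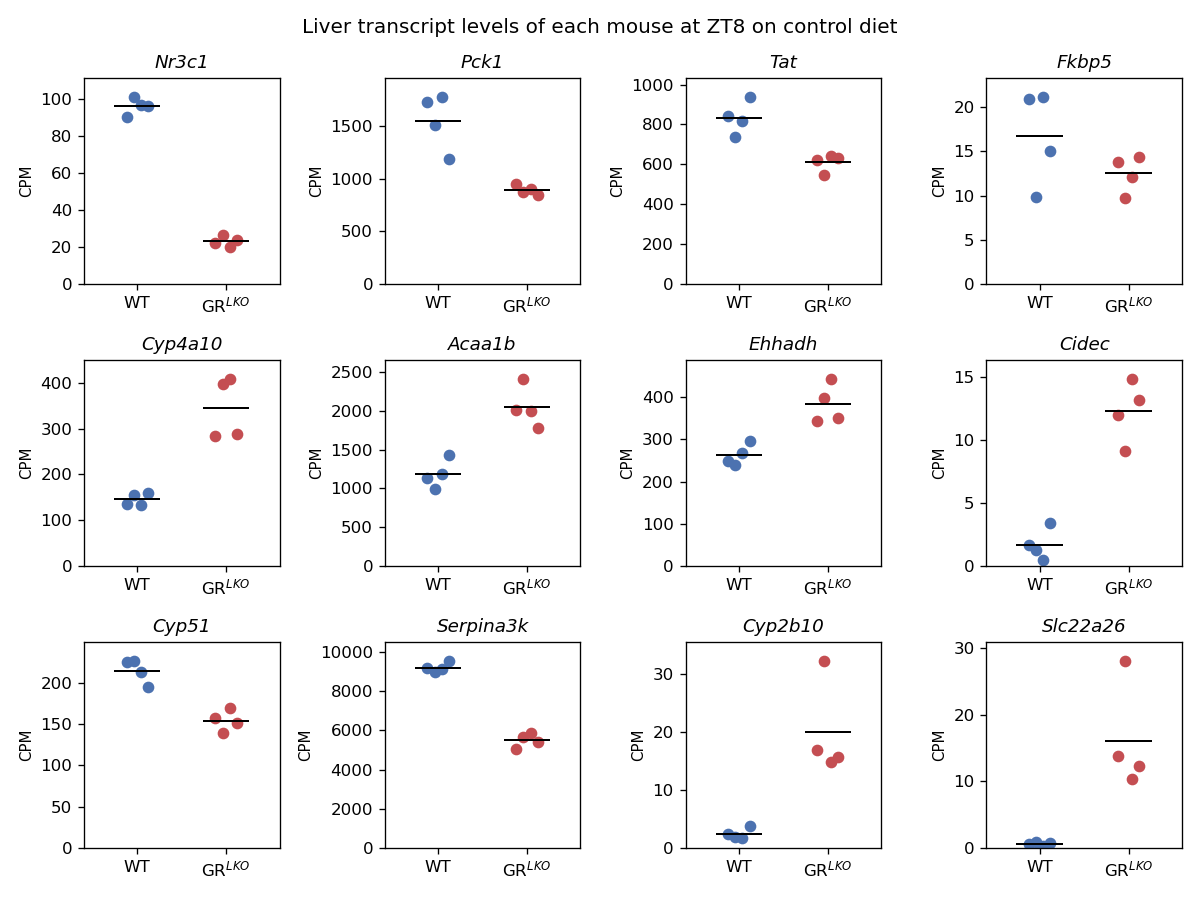
Level of 12 genes in each liver at ZT8 on control diet, in CPM on linear axes from 0. Dots are mice in the order of replicates and bars are means of 4 mice. Nr3c1 lay between 90.7 and 101 CPM in WT and between 19.9 and 26.4 CPM in GRLKO.

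A list of 35 genes known as direct or classical targets of the receptor had a median log2 fold change of -0.34, and 27 of the 35 were negative. Called genes were 2, both lower, and the groups did not overlap in 6 genes, each of them lower in GRLKO. Pck1 (chr2:173153073-173159274, mm10) encodes the cytosolic enzyme that commits oxaloacetate to glucose production. It had 1724, 1509, 1774 and 1188 CPM in WT and 954, 869, 905 and 849 CPM in GRLKO. Every GRLKO liver was below every WT liver, and the WT livers spread more widely (log2 fold change -0.79, SE 0.11, adjusted p 0.0111). Tat encodes tyrosine aminotransferase, which starts tyrosine breakdown. Its level was 844, 736, 816 and 937 CPM in WT and 621, 545, 644 and 631 CPM in GRLKO (log2 fold change -0.45, SE 0.080, adjusted p 0.0274).

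Other classical targets were not called. Zbtb16, a zinc finger transcription factor, was at 7.28, 2.90, 4.03 and 4.60 CPM in WT and 1.58, 3.60, 2.90 and 2.72 CPM in GRLKO (log2 fold change -0.80, SE 0.32, adjusted p 0.378). The groups overlapped. Lpin1, which encodes a phosphatidate phosphatase and coactivator, had 19.5, 54.3, 25.6 and 36.7 CPM in WT and 20.7, 11.03, 14.7 and 14.1 CPM in GRLKO. WT replicate 2 was the highest and WT replicate 1 lay within the GRLKO range (log2 fold change -1.17, SE 0.31, adjusted p 0.135). Igfbp1, a secreted binding protein for insulin-like growth factors, had a log2 fold change of -0.85 (adjusted p 0.395) and overlapping groups. Errfi1, a feedback inhibitor of the epidermal growth factor receptor, had 378, 1151, 520.1 and 730.1 CPM in WT and 304, 307, 286 and 552 CPM in GRLKO. The same WT replicate 2 was highest, and GRLKO replicate 4 lay within the WT range (log2 fold change -0.94, SE 0.34, adjusted p 0.310).

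Some well-known reporters of receptor activity are given for reference, of which Fkbp5 and Tsc22d3 were chosen after their values were seen. Fkbp5, a co-chaperone that lowers the receptor's hormone affinity, had 21.0, 9.86, 21.1 and 15.01 CPM in WT and 13.8, 9.73, 12.1 and 14.4 CPM in GRLKO (log2 fold change -0.42, SE 0.23, adjusted p 0.568). Tsc22d3, also known as GILZ, had 29.3, 33.2, 31.4 and 35.03 CPM in WT and 23.1, 17.7, 29.0 and 24.3 CPM in GRLKO (log2 fold change -0.46, SE 0.13, adjusted p 0.171). Its groups did not overlap, whereas those of Fkbp5 did. Per1, a clock gene with receptor sites, had a log2 fold change of -0.75 (adjusted p 0.172) and was not called.

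Promoter windows are shown for the classical targets that were called, Pck1 and Tat, to let the letters be read beside the values. Both entries were found in the RefSeq table of build GRCm38.p6, which spans 250 bases before to 50 after an annotated start. The windows were searched on both strands for TGTTCT, the half-site of the glucocorticoid response element, for the E-box CACGTG and for the D-box TTATGTAA. Over the 32851 promoters in that table, 19.0% held the half-site, 7.15% the E-box and 0.938% the D-box. Neither window below held any of these motifs, so no letters are in capitals. This says only that the letters are not in these 300 bases. The Pck1 window is chr2:173152823-173153122 and the Tat window chr8:109990186-109990485, both on the plus strand. The start used for Tat lies inside the RefSeq span of the gene, chr8:109986078-109999804.
Pck1: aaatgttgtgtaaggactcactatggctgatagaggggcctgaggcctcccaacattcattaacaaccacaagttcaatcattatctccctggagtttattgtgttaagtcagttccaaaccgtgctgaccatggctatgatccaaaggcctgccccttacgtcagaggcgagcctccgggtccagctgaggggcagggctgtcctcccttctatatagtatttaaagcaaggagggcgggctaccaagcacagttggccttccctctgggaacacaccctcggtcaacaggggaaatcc
Tat: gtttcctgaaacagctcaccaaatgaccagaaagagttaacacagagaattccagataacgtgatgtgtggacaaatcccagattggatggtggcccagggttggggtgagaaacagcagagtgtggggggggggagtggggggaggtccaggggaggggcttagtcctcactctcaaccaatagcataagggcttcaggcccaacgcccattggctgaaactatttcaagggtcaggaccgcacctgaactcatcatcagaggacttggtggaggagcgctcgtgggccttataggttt

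Among 33 tested genes of gluconeogenesis and glucose handling, Pck1 was the 1 called gene, and the list median was -0.02, or 0.0057 without WT replicate 4. Pfkfb3, an enzyme that sets the level of a glycolysis activator, was at 17.3, 35.5, 19.4 and 9.60 CPM in WT and 5.40, 8.04, 11.5 and 12.2 CPM in GRLKO (log2 fold change -1.14, SE 0.38, adjusted p 0.259). WT replicate 4 fell among the GRLKO livers, so the groups overlapped.

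Of 38 genes of amino acid catabolism and the urea cycle, 2 were called, both lower, and the list median was -0.12. The groups did not overlap in 12 of the 38, 11 of them lower in GRLKO. Prodh encodes proline dehydrogenase, the entry step of proline breakdown. It had 201, 185, 176 and 199 CPM in WT and 148, 158, 126 and 124 CPM in GRLKO (log2 fold change -0.46, SE 0.086, adjusted p 0.0368). Tat was the other called member. Oat encodes ornithine aminotransferase. Its level was 1627, 1168, 1570.4 and 1258 CPM in WT and 911, 1251, 760.4 and 796 CPM in GRLKO. GRLKO replicate 2 lay within the WT range while the other 3 GRLKO livers lay below it (log2 fold change -0.60, SE 0.17, adjusted p 0.159).

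Among the genes of fatty acid oxidation and PPARα targets the called changes had a single direction. Of 31 tested genes, 8 were called, all higher in GRLKO. The list median was 0.29, 29 of the 31 were positive, and the groups did not overlap in 14, each of them higher. Over all genes tested, 49.8% had a positive log2 fold change.

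Within this list, Cyp4a10 encodes an ω-hydroxylase of fatty acids and is a common readout of PPARα. It had 136, 154, 133 and 159 CPM in WT and 285, 397, 408 and 289 CPM in GRLKO (log2 fold change 1.24, SE 0.13, adjusted p 0.00254). The neighbouring Cyp4a14 had 37.5, 66.4, 75.0 and 192 CPM in WT and 163, 210.1, 358 and 265 CPM in GRLKO. WT replicate 4 lay above GRLKO replicate 1, and the gene was not called (log2 fold change 1.42, SE 0.45, adjusted p 0.228). Members of the Cyp4a family are near-identical, so the split of reads between them is uncertain.

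Peroxisomal β-oxidation was represented by called genes as well. Acaa1b encodes the thiolase of the last step and had 1130.1, 988, 1182 and 1433 CPM in WT and 2015, 2408, 1997 and 1775 CPM in GRLKO (log2 fold change 0.79, SE 0.12, adjusted p 0.0139). Ehhadh, a bifunctional enzyme of the same pathway, had 248, 239, 267 and 297 CPM in WT and 343, 399, 443 and 349.9 CPM in GRLKO (log2 fold change 0.54, SE 0.10, adjusted p 0.0265). Both genes were higher in every GRLKO liver than in any WT liver. Pex11a, which acts in peroxisome division, had a log2 fold change of 0.52 (adjusted p 0.0393). Aldh3a2, a fatty aldehyde dehydrogenase, had one of 0.44 (adjusted p 0.0257).

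Ketone body metabolism was represented by Bdh1. It encodes the enzyme that interconverts the main ketone bodies and had 240.3, 248, 251 and 234 CPM in WT and 295, 299, 302 and 329 CPM in GRLKO (log2 fold change 0.33, SE 0.051, adjusted p 0.0147). This was a small difference with little spread among the mice.

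Of 28 tested genes of fatty acid and triglyceride synthesis and storage, 3 were called, all higher, and the list median was 0.22. The number called was 0 without WT replicate 1 and 6 without WT replicate 4. The groups did not overlap in 9 genes, each higher in GRLKO. Cidec encodes a lipid droplet protein that enlarges droplets. It had 1.64, 1.23, 0.494 and 3.38 CPM in WT and 12.0, 9.12, 14.8 and 13.2 CPM in GRLKO (log2 fold change 2.82, SE 0.40, adjusted p 0.0111). WT levels were near the detection floor in replicate 3 and highest in replicate 4. Pparg encodes the lipid-storage receptor PPARγ and had 12.2, 17.7, 18.3 and 14.9 CPM in WT and 24.8, 28.8, 23.9 and 28.5 CPM in GRLKO (log2 fold change 0.75, SE 0.13, adjusted p 0.0265). Elovl5, an elongase of polyunsaturated fatty acids, had 338, 342, 373 and 465 CPM in WT and 748, 596, 677 and 597 CPM in GRLKO (log2 fold change 0.78, SE 0.11, adjusted p 0.0117). G0s2, an inhibitor of triglyceride lipolysis, had 37.0, 14.4, 15.9 and 30.3 CPM in WT and 46.4, 54.5, 57.6 and 43.9 CPM in GRLKO. Its groups did not overlap, but it was not called (log2 fold change 1.05, SE 0.27, adjusted p 0.131).

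Cholesterol synthesis and uptake ran the other way. Of 22 genes, 5 were called, all lower in GRLKO, and 20 of the 22 were negative. The list median was -0.28. Cyp51 encodes lanosterol demethylase. It had 225, 226, 213 and 195 CPM in WT and 158, 139, 169 and 151 CPM in GRLKO (log2 fold change -0.48, SE 0.071, adjusted p 0.0126). Idi1, the isomerase that makes the allylic isoprenoid unit, had 334, 378, 346 and 303 CPM in WT and 269, 238, 265 and 237 CPM in GRLKO (log2 fold change -0.43, SE 0.075, adjusted p 0.0257). Nsdhl, a sterol dehydrogenase, had 123, 119, 120.4 and 102 CPM in WT and 95.0, 90.3, 83.1 and 78.8 CPM in GRLKO (log2 fold change -0.42, SE 0.078, adjusted p 0.0338). Each of these 3 genes was lower in every GRLKO liver.

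The remaining called members of the cholesterol list were Msmo1, a sterol methyl oxidase, with a log2 fold change of -0.38 (adjusted p 0.0396), and Pmvk, phosphomevalonate kinase, with -0.32 (adjusted p 0.0397). Fdps encodes farnesyl diphosphate synthase and had 238, 249, 218 and 318 CPM in WT and 144, 138, 208 and 164 CPM in GRLKO. Its groups did not overlap, but it was not called (log2 fold change -0.65, SE 0.15, adjusted p 0.0821). Sqle, squalene epoxidase, had 81.0, 93.3, 72.1 and 81.6 CPM in WT and 45.9, 38.2, 78.1 and 65.6 CPM in GRLKO (log2 fold change -0.53, SE 0.20, adjusted p 0.338). GRLKO replicate 3 was the highest of its group for both, within the WT range for Sqle and just below it for Fdps.

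**Figure D2:**
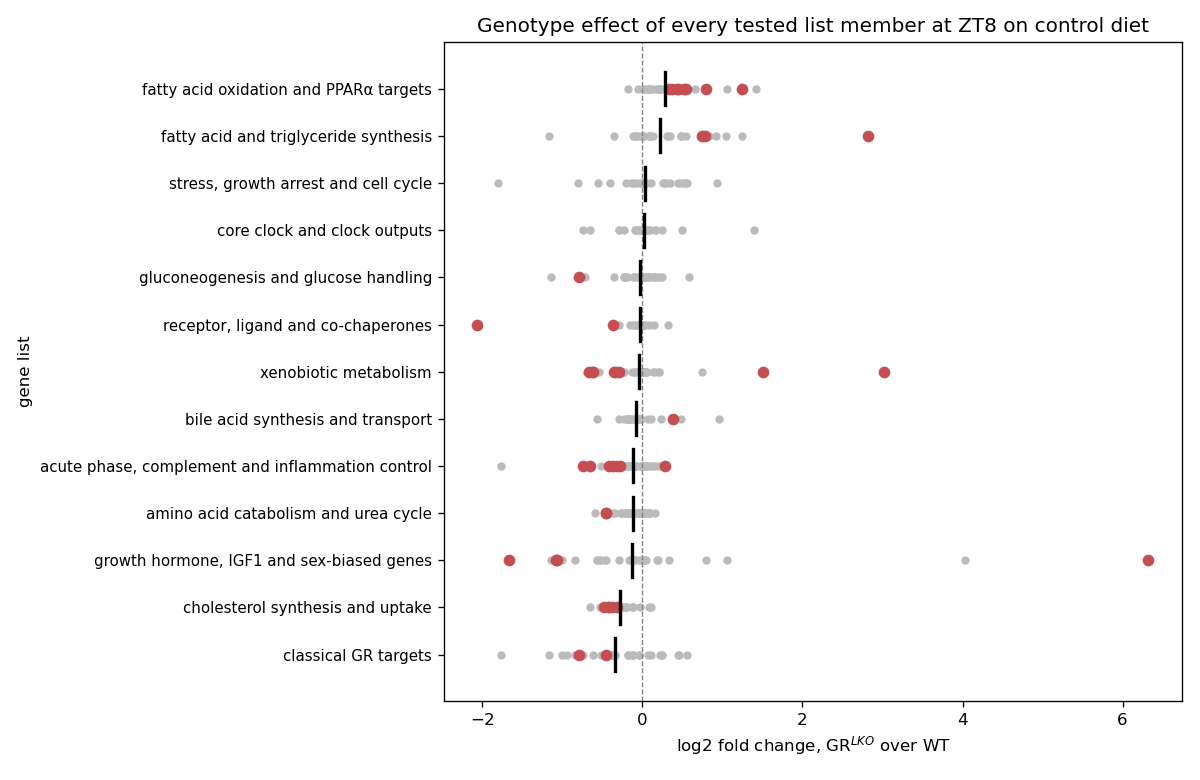
Log2 fold change (GRLKO over WT, 4 mice each) of every tested member of the 13 gene lists at ZT8 on control diet. Each dot is a gene, red where called and grey where not, and the black bar is the list median. Medians run from -0.34 for classical targets to 0.29 for fatty acid oxidation and PPARα targets.

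Xenobiotic metabolism had 8 called genes of 35, with 2 higher and 6 lower, and a list median of -0.04. The sign of this median depended on the mice, as it was -0.15 without GRLKO replicate 2 and 0.015 without GRLKO replicate 4. Cyp2b10 encodes a cytochrome P450 known as the readout of the receptor CAR. It had 2.35, 1.89, 1.65 and 3.79 CPM in WT and 16.9, 32.2, 14.8 and 15.7 CPM in GRLKO (log2 fold change 3.02, SE 0.33, adjusted p 0.00354). GRLKO replicate 2 was the highest, and the other GRLKO livers were each above every WT liver as well. Gsta1, a glutathione transferase, had 6.71, 7.18, 9.96 and 15.3 CPM in WT and 23.5, 36.5, 30.5 and 21.3 CPM in GRLKO (log2 fold change 1.51, SE 0.27, adjusted p 0.0277). Cyp1a2, a cytochrome P450 of the dioxin receptor pathway, had 656, 612, 662 and 604 CPM in WT and 425, 395, 397 and 423 CPM in GRLKO (log2 fold change -0.63, SE 0.051, adjusted p 0.000715). Gstp1, another glutathione transferase, had 1962, 1859, 2222 and 2067 CPM in WT and 1276, 1453, 1394 and 1189 CPM in GRLKO (log2 fold change -0.61, SE 0.076, adjusted p 0.00578). Cyp1a2 and Gstp1 had no WT liver near the GRLKO range.

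The other 4 called genes of this list were lower. Sult1a1, a sulfotransferase, had a log2 fold change of -0.67 (adjusted p 0.0261). That of Fmo5, a flavin-containing monooxygenase, was -0.36 (adjusted p 0.0111). Ugt2b1, a glucuronosyltransferase, and Cyp2c50, a cytochrome P450, had -0.33 (adjusted p 0.0289) and -0.29 (adjusted p 0.0476). The Cyp2b and Sult families hold near-identical copies, so single members are uncertain.

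Growth hormone signalling shapes the liver's male and female gene programs. Of 33 tested genes of this group, 1 was called higher and 3 lower, and the list median was -0.13. Cyp2b9, a cytochrome P450 typical of female liver, had 0, 0.218, 0.247 and 0.541 CPM in WT and 4.25, 8.35, 29.5 and 42.6 CPM in GRLKO (log2 fold change 6.32, SE 0.98, adjusted p 0.0147). WT livers held at most 8 counts, and the GRLKO livers differed widely from each other. Cyp2a4, another gene typical of female liver, had 0.642, 0.943, 1.15 and 1.76 CPM in WT and 1.8004, 7.89, 23.8 and 40.6 CPM in GRLKO. Its groups did not overlap, but the spread was wide and it was not called (log2 fold change 4.03, SE 0.87, adjusted p 0.0683).

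The called genes that were lower are typical of male liver. Selenbp2, a selenium-binding protein, had 734, 585, 421 and 562 CPM in WT and 151, 177, 274 and 122 CPM in GRLKO (log2 fold change -1.67, SE 0.25, adjusted p 0.0124). Serpina1e, an α1-antitrypsin copy, had 9082, 7182, 9551 and 9272 CPM in WT and 3776, 4247, 5391 and 3251 CPM in GRLKO (log2 fold change -1.08, SE 0.15, adjusted p 0.0107). Mup20, a major urinary protein that serves as a male odour signal, had 5845, 5991, 4479 and 5405 CPM in WT and 2109.7, 1746, 3688 and 2795 CPM in GRLKO (log2 fold change -1.07, SE 0.21, adjusted p 0.0396). In each of these, GRLKO replicate 3 was the highest of its group and still below every WT liver. Mup17, a family member outside the lists, went the other way, with 278, 162, 155 and 323 CPM in WT and 581, 1209, 1135 and 883 CPM in GRLKO (log2 fold change 2.05, SE 0.29, adjusted p 0.0113). The Mup and Serpina1 families are near-identical, so that reads assigned to one copy may come from another.

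Of 41 tested genes of the acute phase, complement and inflammation control, 1 was called higher and 6 lower, with a list median of -0.12. Without WT replicate 3 this median was -0.074. The groups did not overlap in 13, of which 11 were lower. Serpina3k, a secreted serine protease inhibitor, had 9182, 9001, 9122 and 9544 CPM in WT and 5047, 5662, 5868 and 5431 CPM in GRLKO (log2 fold change -0.75, SE 0.054, adjusted p 0.000513). It belongs to a family of near-identical copies. The interleukin 1 receptor gene Il1r1 had 29.0, 28.9, 30.2 and 25.9 CPM in WT and 17.4, 19.2, 16.4 and 19.1 CPM in GRLKO (log2 fold change -0.66, SE 0.079, adjusted p 0.00489).

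Genes of the terminal complement pathway were among those lower. C9, which forms the membrane pore, had 521, 517, 506 and 524 CPM in WT and 369, 384, 433 and 371 CPM in GRLKO (log2 fold change -0.41, SE 0.056, adjusted p 0.0105). Hc, which encodes complement C5, had 955, 939, 986 and 919.8 CPM in WT and 746, 749.7, 757 and 707 CPM in GRLKO (log2 fold change -0.36, SE 0.043, adjusted p 0.00471). C8a, a further pore subunit, had a log2 fold change of -0.28 (adjusted p 0.0214). Itih3, a hyaluronan-binding inhibitor chain, had one of -0.32 (adjusted p 0.0156). Il6ra, the interleukin 6 receptor, had a log2 fold change of -0.72 (adjusted p 0.188) without overlap and was not called. Lcn2, an iron-scavenging acute phase protein, was at or below 1.45 CPM in every liver.

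Among 25 tested genes of bile acid synthesis and transport, 1 was called, Abcc3, and the list median was -0.08. Abcc3 encodes an export pump on the blood side of hepatocytes. It had 368, 348, 383 and 385 CPM in WT and 526, 508, 449 and 447 CPM in GRLKO (log2 fold change 0.38, SE 0.066, adjusted p 0.0265). Abcc4, another export pump, had 3.78, 3.92, 6.4997 and 7.37 CPM in WT and 11.9, 12.0, 9.98 and 8.08 CPM in GRLKO (log2 fold change 0.95, SE 0.24, adjusted p 0.108). Cyp7b1, an oxysterol hydroxylase more abundant in male liver, had 301, 246, 263 and 269 CPM in WT and 171, 216, 198 and 142 CPM in GRLKO (log2 fold change -0.57, SE 0.12, adjusted p 0.0585). The groups did not overlap in either of the latter, and neither passed the threshold.

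No gene of the 24 tested clock genes was called by edgeR, and none of the 27 tested genes of stress, growth arrest and cell cycle. At an unadjusted p under 0.05 the numbers were 3 and 2, and DESeq2 called 2 and 0. The list medians were 0.02 and 0.03, and both were negative without WT replicate 1. Noct, a deadenylase-like clock output, had 160.0, 173, 169.7 and 166 CPM in WT and 146, 150.1, 134 and 118 CPM in GRLKO (log2 fold change -0.29, SE 0.073, adjusted p 0.116), the clock gene without overlap between the groups. Ciart, a repressor within the clock, had a log2 fold change of -0.30 (adjusted p 0.552). Arntl, which encodes the clock activator BMAL1, was at or below 2.66 CPM in every liver. Hsph1, a heat shock protein, was at 0 CPM in 3 GRLKO livers and at 7.35 CPM in replicate 2 (log2 fold change -1.81, SE 1.19, adjusted p 0.653). Without that liver it was called lower, with an adjusted p of 0.0282, the 1 stress gene called in any alternative. Gadd45b, a growth arrest gene, was at or below 2.30 CPM in every liver.

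Many of the largest called changes lay outside the lists. Among genes lower in GRLKO, Mfsd2a encodes a transporter of lysophosphatidylcholine. It had 10.3, 16.9, 2.72 and 5.61 CPM in WT and 0.720, 0.766, 0.644 and 1.36 CPM in GRLKO (log2 fold change -3.33, SE 0.56, adjusted p 0.0232). WT livers differed several-fold, and all were above every GRLKO liver. Serpine2, a secreted protease inhibitor, had 14.98, 9.21, 9.38 and 12.5 CPM in WT and 2.95, 1.61, 1.37 and 2.79 CPM in GRLKO (log2 fold change -2.39, SE 0.27, adjusted p 0.00420). Enho encodes the secreted peptide adropin and had 18.3, 19.0, 19.2 and 22.2 CPM in WT and 3.17, 3.98, 7.88 and 4.29 CPM in GRLKO (log2 fold change -2.04, SE 0.23, adjusted p 0.00460). Apoa4 encodes an apolipoprotein of triglyceride-rich particles. Its level was 98.4, 107, 98.8 and 92.0 CPM in WT and 35.9, 37.8, 41.5 and 37.5 CPM in GRLKO (log2 fold change -1.38, SE 0.065, adjusted p 1.45e-05). It had the smallest adjusted p after Nr3c1 among the genes named, with little spread within either group.

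Slc3a1, a subunit of a cystine and dibasic amino acid transporter, had 41.6, 44.1, 41.5 and 40.5 CPM in WT and 15.9, 17.3, 13.3 and 19.0 CPM in GRLKO (log2 fold change -1.36, SE 0.10, adjusted p 0.000522). Avpr1a, the hepatic vasopressin receptor, had 14.2, 12.5, 18.5 and 13.7 CPM in WT and 4.97, 3.98, 6.36 and 9.30 CPM in GRLKO (log2 fold change -1.26, SE 0.24, adjusted p 0.0393). Eif4ebp3, an inhibitor of translation initiation, had 13.8, 12.8, 7.57 and 7.71 CPM in WT and 2.59, 5.29, 4.59 and 2.72 CPM in GRLKO (log2 fold change -1.47, SE 0.29, adjusted p 0.0438). In all 3 genes the groups stayed apart.

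Among genes higher in GRLKO, Slc22a26, a member of the organic anion transporter family, had 0.571, 0.870, 0.329 and 0.744 CPM in WT and 13.8, 28.0, 10.4 and 12.2 CPM in GRLKO (log2 fold change 4.64, SE 0.41, adjusted p 0.00117). Gprc5b, an orphan receptor of the G protein-coupled class, had 0.499, 0.290, 0.165 and 0.338 CPM in WT and 6.27, 5.52, 7.88 and 11.6 CPM in GRLKO (log2 fold change 4.54, SE 0.35, adjusted p 0.000616). Both were barely detected in WT and clearly detected in every GRLKO liver. Hamp2, a hepcidin copy, had 7.06, 7.25, 4.53 and 4.87 CPM in WT and 22.5, 19.3, 22.2 and 26.1 CPM in GRLKO (log2 fold change 1.92, SE 0.17, adjusted p 0.00114). Fabp5, a fatty acid carrier, had 25.7, 30.2, 37.8 and 61.9 CPM in WT and 96.4, 90.9, 168 and 98.9 CPM in GRLKO (log2 fold change 1.54, SE 0.29, adjusted p 0.0362). GRLKO replicate 3 was highest, and WT replicate 4 was the highest WT liver.

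Gal3st1, a sulfotransferase that makes sulfatide, had 0.927, 1.67, 0.987 and 2.57 CPM in WT and 4.75, 5.13, 5.63 and 4.65 CPM in GRLKO (log2 fold change 1.69, SE 0.30, adjusted p 0.0290). Ighm, the heavy chain of immunoglobulin M made by B cells, had 10.4, 11.9, 14.1 and 11.5 CPM in WT and 35.9, 24.7, 36.0 and 37.7 CPM in GRLKO (log2 fold change 1.49, SE 0.15, adjusted p 0.00204). Of the 7 lymphocyte markers 2 were tested. None was called by edgeR, 1 had an unadjusted p under 0.05, and DESeq2 called 0. The summed level of the list was 2.996, 3.92, 2.96 and 3.11 CPM in WT and 5.04, 5.82, 3.70 and 3.08 CPM in GRLKO. Their part in the Ighm result was not tested.

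Markers of other cell types were counted in the same way. None was called among 9 Kupffer and myeloid, 7 endothelial, 8 stellate and fibroblast, 2 tested cholangiocyte and 5 tested erythrocyte markers by edgeR. At an unadjusted p under 0.05 the number over these lists was 2, and DESeq2 called 1. No marker of neutrophils or of exocrine pancreas reached the count filter. The erythrocyte markers summed to 696, 289.7, 299.6 and 637 CPM in WT and 597, 463, 1434 and 429.8 CPM in GRLKO, with the most counts for Hbb-bs. The 5 tested were all positive, with a median log2 fold change of 0.66. This median was -0.080 without GRLKO replicate 3 and 0.42 without WT replicate 2. Without GRLKO replicate 4 it was 0.87, and edgeR called 1 of the 5 markers higher. With replicates 1 to 3 alone it was 1.08, also with 1 called higher. Their part in the results was not tested. The cholangiocyte marker Epcam had no count in any of the 8 libraries.

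Of 3 tested adipocyte markers 2 were called, both higher. The number was 0 without WT replicate 1, and 1 without WT replicate 2 or 3 or GRLKO replicate 1, 2 or 3. Cfd encodes complement factor D, also named adipsin. It had 0, 0, 0 and 1.56 CPM in WT and 19.3, 9.19, 45.2 and 21.3 CPM in GRLKO (log2 fold change 5.80, SE 0.86, adjusted p 0.0126). The WT mean rests on replicate 4 with 23 counts, as the other 3 WT livers had none. With replicates 1 to 3 alone, thus without that liver, the log2 fold change was 11.34, a size that depends on the prior count. Car3, a carbonic anhydrase abundant in adipocytes and in liver, had 3479, 3782, 3862 and 4378 CPM in WT and 6538, 5711, 5419 and 4921 CPM in GRLKO (log2 fold change 0.54, SE 0.095, adjusted p 0.0265). The adipocyte list summed to 3484, 3787, 3866 and 4383 CPM in WT and 6563, 5724, 5470.0 and 4948 CPM in GRLKO, nearly all of it Car3. The defining adipocyte markers Plin1 and Lep had no count in any library, and Adipoq had 3 counts over the 8 libraries.

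Whether the genotype effect differed by time or diet was tested as the difference of log2 fold changes, ZT8 minus the other condition. Against ZT12, 18 of 11980 genes (0.150%) were called, 12 with a positive and 6 with a negative difference. At an unadjusted p under 0.05 the number was 658, and DESeq2 called 78. With 1 mouse left out the number ran from 11, without WT replicate 1 or 4 or GRLKO replicate 2 or 4 of ZT8, to 21, without WT replicate 1 of ZT12. St3gal5, which encodes the synthase of the ganglioside GM3, averaged 55.6 CPM in WT and 48.6 CPM in GRLKO at ZT8. At ZT12 it averaged 180.6 and 47.5 CPM, a log2 difference of effects of 1.73 (adjusted p 2.51e-05). The genotypes thus stood apart at ZT12, where the 4 WT livers held 174, 208, 175 and 165 CPM. Here and below, levels beside an interaction are scaled over the libraries of both conditions.

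Zbtb16 showed a wider form of this pattern. At ZT12 its WT livers had 40.6, 55.3, 66.6 and 51.2 CPM and its GRLKO livers 3.77, 4.84, 2.44 and 3.53 CPM. The log2 fold change there was -3.86 (adjusted p 5.05e-05), against -0.80 (adjusted p 0.378) at ZT8, with a log2 difference of 3.05 (adjusted p 0.00276). Cdip1, a proapoptotic target of p53, was called at both times, with -0.30 (adjusted p 0.0265) at ZT8 and -1.24 (adjusted p 5.05e-05) at ZT12, and a difference of 0.95 (adjusted p 2.51e-05). For Nucks1, a chromatin-associated protein, the difference was 0.78 (adjusted p 0.000179), and for Fbxo31, a ubiquitin ligase subunit, 1.00 (adjusted p 0.00168).

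In the other direction, Ppp1r9a, an actin-binding scaffold, averaged 22.4 CPM in WT and 19.0 CPM in GRLKO at ZT8. At ZT12 it averaged 2.56 and 9.67 CPM, giving a log2 difference of -2.16 (adjusted p 0.000861). Its WT level was low at ZT12 and its GRLKO level less so. Cldn2, a tight junction protein, had a difference of -0.94 (adjusted p 0.00276), and Tlr12, a pattern receptor, one of -1.37 (adjusted p 0.00667). Zfpm1, a cofactor of GATA factors, was lower in GRLKO at ZT8 at -0.43 (adjusted p 0.0198). Its effect at ZT12 was 0.59 (adjusted p 0.0605), not called, and the difference was -1.02 (adjusted p 0.00954). Paqr9, a membrane protein of the progestin receptor family, differed by -0.84 (adjusted p 0.0262). It was not called in 11 of 20 alternatives, with an adjusted p of up to 0.0827, while the other genes named for ZT12 stayed called in all 20.

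Against ZT4, 0 of 12189 genes (0%) were called by edgeR and 0 by DESeq2, and 418 had an unadjusted p under 0.05. ZT4 had 3 mice in each genotype. Without WT replicate 3 of ZT4 the number called was 1.

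Against caloric restriction at ZT8, with 3 mice in each genotype, 10 of 12345 genes (0.0810%) were called, 7 positive and 3 negative. At an unadjusted p under 0.05 the number was 1043, and DESeq2 called 121. Without WT replicate 1 of caloric restriction the edgeR number was 35, and without GRLKO replicate 1 of that diet it was 4. Without GRLKO replicate 1 or GRLKO replicate 3 of control diet it was 6. The diets were in separate tables of libraries, so levels between diets cannot be told apart from a difference between those tables, and only the difference of effects within each diet was tested.

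Serpina3k was called on both diets. Its log2 fold change was -0.75 (adjusted p 0.000513) on control diet and -2.71 (adjusted p 0.00109) on caloric restriction, a difference of 1.96 (adjusted p 0.000132). St3gal5 was called on caloric restriction, at -1.50 (adjusted p 0.00414), and its effects differed by 1.30 (adjusted p 0.00794). Cyp17a1, a steroid hydroxylase, had 28.6, 25.7 and 13.04 CPM in WT and 1.17, 1.02 and 1.30 CPM in GRLKO on caloric restriction. On control diet both genotypes averaged under 2 CPM, and the effects differed by 3.80 (adjusted p 0.000729). Wfdc21, a small secreted protein, differed by 2.06 (adjusted p 0.00924), and Megf9, a membrane protein with EGF-like repeats, by 0.92 (adjusted p 0.0131). Neither was called without GRLKO replicate 1 of caloric restriction, each with an adjusted p of 0.0603.

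With a negative difference, Elovl3, an elongase typical of male liver, averaged 42.9 CPM in WT and 31.0 CPM in GRLKO on control diet. On caloric restriction it had no count in any WT liver and 1.02, 2.96 and 3.55 CPM in GRLKO. Its GRLKO mean there was at least 14.96-fold higher than WT, taking 3 counts per WT library as the floor. Its fitted log2 difference of -8.73 (adjusted p 0.00794) depends on the prior count. Alas2, the heme synthesis enzyme of erythroid cells, differed by -1.04 (adjusted p 0.0315), and Fbf1, a protein of cilia and cell junctions, by -1.66 (adjusted p 0.0467). Of 18 alternatives, Alas2 was not called in 10 and Fbf1 in 11, with an adjusted p of up to 0.102 and 0.133. Among erythrocyte markers Alas2 was not called at ZT8 on control diet, as given with the markers.

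The genotype effects at other times and on the other diet come from separate mice and are set side by side. At ZT4, 23 of 11817 genes were called (0.195%), at ZT12 238 of 11428 (2.08%), and on caloric restriction at ZT8 308 of 12070 (2.55%). Of the called ZT8 genes tested there, the sign was the same for 162 of 165 at ZT4, 154 of 164 at ZT12 and 151 of 160 on caloric restriction. Over all genes tested in both, the sign was the same for 62.7, 62.5 and 63.1%. Genes called in both comparisons were 17 with ZT4, 50 with ZT12 and 62 with caloric restriction. These were 10.2, 30.1 and 37.3% of the ZT8 genes, and 73.9, 21.0 and 20.1% of the genes called in the other comparison.

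The lists were set side by side in the same way. The classical targets had medians of -0.12 at ZT4, -0.34 at ZT8, -1.004 at ZT12 and -0.63 on caloric restriction, with 0, 2, 13 and 9 called, all lower. Fkbp5, for example, had -2.29 (adjusted p 0.00224) at ZT12 and -2.20 (adjusted p 0.0101) on caloric restriction. Its difference between ZT8 and ZT12 was 1.87 (adjusted p 0.0744), not called. The cholesterol list had medians of 0.00070 at ZT4, -0.28 at ZT8, 0.03 at ZT12 and -0.69 on caloric restriction, with 0, 5, 0 and 10 called. None of its named genes was called for a difference from ZT12. For Cyp51 that difference was -0.48 (adjusted p 0.858).

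Fatty acid oxidation and PPARα targets had medians of 0.40, 0.29, 0.30 and 0.39 in the same order, with 1, 8, 3 and 4 called higher. On caloric restriction 1 further member was called lower. Acaa1b had 1.09 (adjusted p 0.0116) at ZT4 and 1.25 (adjusted p 0.0101) on caloric restriction. Acute phase and complement genes had medians of -0.14, -0.12, -0.35 and -0.56, with 1, 6, 9 and 4 called lower. Il1r1 had -0.66 at ZT8 and -2.51 (adjusted p 0.00311) at ZT12. Its difference between ZT8 and ZT12 was 1.85 (adjusted p 0.0367) and was called. This difference was not followed over the alternatives.

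**Figure D3:**
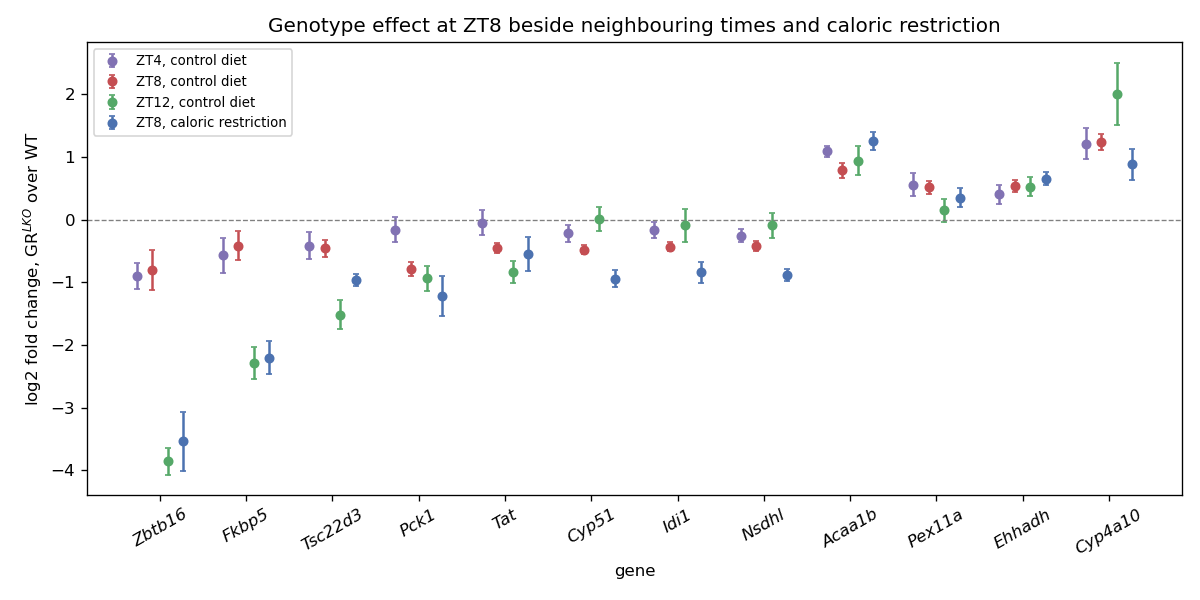
Log2 fold change (GRLKO over WT) with its standard error for 12 genes at ZT4, ZT8 and ZT12 on control diet and at ZT8 on caloric restriction. Groups had 3 mice at ZT4 and on caloric restriction and 4 at ZT8 and ZT12. Zbtb16 was at -0.80 at ZT8 and at -3.86 at ZT12.

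Levels over the day, scaled over the 42 control diet libraries, place ZT8 within the rhythm. Pck1 in WT averaged 383.8 CPM at ZT0, 817 CPM at ZT4, 1529 CPM at ZT8, 4341 CPM at ZT12, 1454 CPM at ZT16 and 1362.0 CPM at ZT20. In GRLKO it averaged 389.7, 731, 884, 2277, 693 and 670.4 CPM. The genotype means were nearer each other at ZT0 and ZT4 than at the other 4 times. The livers spread widely at some times, as at ZT20 from 170 to 2119 CPM in WT and from 317 to 1184 CPM in GRLKO. The differences in the Pck1 effect between ZT8 and ZT4 (-0.64) and between ZT8 and ZT12 (0.15) were not called. Cyp51 in WT averaged 224, 238, 212, 116, 118 and 239 CPM at these times, and 225, 205, 152, 117, 128 and 231 CPM in GRLKO. Among these times its genotype means were farthest apart at ZT8, the time at which the gene was chosen for its call. Its differences in effect from ZT12 (-0.48, adjusted p 0.858) and from ZT4 (-0.27) were not called. Nr3c1 averaged between 75.4 and 95.1 CPM over the 6 times in WT and between 18.8 and 26.0 CPM in GRLKO.

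The number of called genes depended on the mice and the tool. It was 373 by DESeq2, which included all 166, and 36 in a fit over the 42 control diet libraries, which included 35 of them. It was 56, 71, 80 and 160 without WT replicates 1 to 4, and 97, 101, 101 and 105 without GRLKO replicates 1 to 4. The alternatives were followed for 77 genes named for the genotype effect, without Car3, Cdip1 and Zfpm1. Of the 53 called among them, 31 were not called without WT replicate 1, and 7 stayed called under each alternative tried, namely Nr3c1, Cyp2b10, Serpina3k, Serpine2, Enho, Slc22a26 and Gprc5b. With 1 mouse left out, the called PPARα targets numbered 2 to 8 and the called cholesterol genes 0 to 4, while the list medians stayed within 0.24 to 0.31 and -0.31 to -0.22 over all 15 alternatives. In the fit over the 42 libraries no gene of either list was called, and neither were Pck1 and Tat. In the other lists the number called with 1 mouse left out was 1 to 2 for the receptor list, 1 to 4 for classical targets, 1 to 2 for gluconeogenesis, 0 to 3 for amino acid genes, 4 to 7 for xenobiotic genes, 2 to 5 for growth hormone genes, 4 to 8 for acute phase genes and 0 to 2 for bile acid genes. None of the 77 changed sign. Of the 92 named genes looked up by position, which leave out Car3 and some other cell markers, 38 overlap another annotated gene, such as Enho with Dnaic1, and how far their reads were kept apart is not known.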

How the data were processed

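RNA of 8 livers was sequenced, 4 WT and 4 GRLKO, on control diet at ZT8. The deposited values are estimated counts per gene, which the authors made with Salmon on mm10. FastQC, MultiQC and DESeq2 are also named in the submitters' processing notes. The diets came in separate tables, with 42 control diet libraries and 78 libraries in all. A further 3 deposited tables, of other mice in a diet and a corticosterone experiment, were not used. Estimated counts were rounded, genes were filtered with filterByExpr at a minimum count of 10, and TMM scaling was applied. Genotypes were compared with edgeR 4.0.16 (R 4.3.3) by the quasi-likelihood test, with Benjamini-Hochberg adjustment over all genes tested and a threshold of 0.05. Every adjusted p comes from this test. Each genotype comparison used its own 2 groups, and each interaction its own 4 groups. DESeq2 1.42.0, RLE scaling, other filters, a replicate block, a fit over 12 groups and leaving out each mouse were the alternatives. The pipeline was tested on simulated data. Counting precision at the depth of 12301800 to 14981008 counts covers counting error only.

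Genes were matched by symbol, and 410 of 27654 gene identifiers had none. The list entries Gyk, C5 and Tf were read as Gk, Hc and Trf by RefSeq synonym. The 13 gene lists, the 10 marker lists and the samples were chosen with earlier results of these data known. Named genes were Nr3c1, called list members, 2 to 6 members of each list by size, the 15 called genes with the largest change in each direction with at least 5 CPM in a genotype, and the 5 genes with the smallest p in each direction of an interaction. Not every gene the rule allows is named. Promoter sequences and gene positions came from RefSeq.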

Additional observations from a re-analysis of the deposited data

Results flagged for a closer look

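In 8 of the 154 groups of 4 mice looked at, the highest or lowest liver lay far from the other 3, relative to the range of the group. Chance alone gives about 1 such group in 20, and the number found is near that share. In GRLKO, Errfi1 was at 552 CPM in replicate 4, with the next liver at 307 CPM. Cyp2b10 was at 32.2 CPM in replicate 2, with the next at 16.9 CPM. Hsph1 was at 7.35 CPM in replicate 2 and at 0 CPM in the others. Fabp5 was at 168 CPM in replicate 3, with the next at 98.9 CPM. Ciart was at 12.1 CPM in replicate 4, with the next at 10.7 CPM. Ighm was lowest in replicate 2, at 24.7 CPM, with the next at 35.9 CPM. In WT, Pmvk was at 64.8 CPM in replicate 3, with the next at 60.2 CPM. Cfd was at 1.56 CPM in replicate 4 and at 0 CPM in the others.

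For some genes the genotype effect at ZT8 on control diet differed from the effect in another condition, by a test of the difference itself. Against ZT12 the log2 differences were 1.73 for St3gal5, 0.95 for Cdip1, 0.78 for Nucks1, 1.00 for Fbxo31 and 3.05 for Zbtb16. In the other direction they were -2.16 for Ppp1r9a, -0.94 for Cldn2, -1.37 for Tlr12, -1.02 for Zfpm1 and -0.84 for Paqr9. Against caloric restriction they were 1.96 for Serpina3k, 3.80 for Cyp17a1, 1.30 for St3gal5, 2.06 for Wfdc21 and 0.92 for Megf9. In the other direction they were -8.73 for Elovl3, whose WT livers on caloric restriction had no count, -1.04 for Alas2 and -1.66 for Fbf1.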

How the results depend on the processing

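The genotype comparison gave 166 called genes. DESeq2 gave 373, and one edgeR fit over the 42 control diet libraries gave 36. The cause was not tested. With replicates 1 to 3 of each genotype, thus fewer mice, 105 genes were called. RLE scaling gave 165, no filter on low counts 154, and a filter at 1 CPM 164. With 1 mouse left out the count ran from 56 to 160. It moved by more than 1.5 times without WT replicate 1 (56), 2 (71) or 3 (80) and without GRLKO replicate 1 (97), 2 (101), 3 (101) or 4 (105).

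The difference from ZT12 gave 18 called genes, 78 by DESeq2, and 11 to 21 with 1 mouse left out. The number was 11 without WT replicate 1 or 4 or GRLKO replicate 2 or 4 of ZT8. The difference from ZT4 gave 0, also by DESeq2, and 0 to 1 with 1 mouse left out, the 1 without ZT4 WT replicate 3. The difference from caloric restriction gave 10, 121 by DESeq2, and 4 to 35 with 1 mouse left out. It was 35 without WT replicate 1 and 4 without GRLKO replicate 1 of caloric restriction, and 6 without GRLKO replicate 1 or 3 of control diet. The cause of the larger DESeq2 counts was not tested.

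Replicate number as a block gave 36 called genes for the genotype comparison, 33 of them shared with the 166, and 16, 0 and 6 for the differences from ZT12, ZT4 and caloric restriction. With this block 1 PPARα target and 0 cholesterol genes were called, against 8 and 5, and 0 genes of fat synthesis and 0 adipocyte markers, against 3 and 2. Megf9, Elovl3, Alas2 and Fbf1 lost their call for diet. The correlations of same-numbered livers across genotypes were -0.017, -0.020, -0.044 and 0.038. Whether the numbers pair mice across genotypes cannot be told from so few livers. The cause of the lower count was not tested.

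Of 77 genes named for the genotype effect and followed over the alternatives, which leave out Car3, Cdip1 and Zfpm1, 53 were called, and none changed sign under any of the 15 alternatives. Of the 53, 7 stayed called throughout. Of the genes not called, 14 were called under at least 1 alternative. Without WT replicate 1, 31 of the 53 were no longer called, with the block 36, and in the fit over 42 libraries 40. RLE scaling changed no call among the 77. Depth was similar in all 8 libraries and limits genes near 1 CPM.

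Of the genes named for a difference between conditions, Paqr9 was not called in 11 of 20 alternatives for ZT12, and for diet Alas2 was not called in 10 and Fbf1 in 11 of 18. The fit over 42 libraries called 0 PPARα targets, 0 cholesterol genes and 0 genes of fat synthesis, and 0 classical targets, gluconeogenesis, amino acid and bile acid genes, against 2, 1, 2 and 1. The genes of fat synthesis called were 3, or 0 without WT replicate 1 and 6 without WT replicate 4. The 2 called adipocyte markers fell to 0 without WT replicate 1. The log2 fold change of Cfd was 5.80, and 11.34 with replicates 1 to 3 alone, where no WT liver had a count. Hsph1 was called, with an adjusted p of 0.0282, without GRLKO replicate 2 only. Called classical targets were 2, or 4 without WT replicate 4. They were 1 without WT replicate 1 or 3 or GRLKO replicate 1, 2, 3 or 4. Called amino acid genes were 2, or 0 without WT replicate 1 or 3 or GRLKO replicate 1, 3 or 4. They were 1 without WT replicate 2 or 4 and 3 without GRLKO replicate 2. The receptor list had 2, or 1 without WT replicate 1 or 2, and gluconeogenesis 1, or 2 without WT replicate 4. The erythrocyte median of 0.66 was -0.080 without GRLKO replicate 3. Called erythrocyte markers were 0, or 1 without GRLKO replicate 4 and 1 with replicates 1 to 3 alone. The xenobiotic median of -0.04 was -0.15 without GRLKO replicate 2, -0.11 without replicate 1 and 0.015 without replicate 4. The gluconeogenesis median of -0.02 was 0.0057 without WT replicate 4. The acute phase median of -0.12 was -0.074 without WT replicate 3, and the bile acid median of -0.08 was -0.13 without GRLKO replicate 2. The receptor list median of -0.04 was -0.060 without WT replicate 2 and -0.015 without WT replicate 4. The clock median of 0.02 was negative without WT replicate 1 or GRLKO replicate 1 or 2, and the stress median of 0.03 without WT replicate 1.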
